A study of Saccharomyces cerevisiae with 6 samples.

Results

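The 9 genes described here encode enzymes that make histidine and threonine in *Saccharomyces cerevisiae*. *HIS1*, *HIS4*, *HIS7*, *HIS3* and *HIS5* belong to histidine synthesis, and *HOM3*, *HOM2*, *THR1* and *THR4* to the route from aspartate through homoserine to threonine. They were chosen by gene symbol, as the genes that the array's platform annotation gives for its probe sets, the groups of short oligonucleotides that each report on a transcript. They make up 9 of the 5656 genes measured, and each was read at the probe set with the highest mean log2 signal over the 6 arrays. No filter on low signals was used, so all 9 entered the test.

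Yeast builds histidine from phosphoribosyl pyrophosphate (PRPP) and ATP, and the pathway releases an intermediate of purine synthesis on the way. Homoserine, made from aspartate by the *HOM* enzymes, is the branch point at which carbon goes either to threonine, and from there to isoleucine, or to methionine. The genes of both routes are textbook targets of Gcn4p, the activator of amino acid synthesis genes, and several *HIS* genes are also activated by Bas1p together with Pho2p, the pair that controls purine synthesis genes.

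All cultures were of strain S288C, a haploid of mating type alpha whose stated markers are *gal2*, *mal*, *mel*, *flo1* and *flo8-1*, with *SUC2* and *CUP1*. The synthetic dextrose medium held no added amino acids, so the cells had to make their own histidine and threonine. The pterostilbene group was 3 independent cultures given the compound, a plant stilbene, at 70 μM, a dose chosen for slowing growth, and the control group was 3 independent cultures given dimethyl sulfoxide, the solvent, at 0.25%. The compound came from a stock in this solvent, but the solvent content of the treated cultures is not given in the sources used here. A difference in solvent between the groups can therefore not be told apart from an effect of the compound. Additions were made at an absorbance of 0.2 and cells were collected at 0.5, so an effect of slower growth or of a later harvest cannot be told apart from an effect of the compound.

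Each value is a signal on a linear intensity scale, already scaled by the Affymetrix software of the authors. The median signal lay between 119.1 and 123.4 on the control arrays and between 161.6 and 170.2 on the pterostilbene arrays. Pearson correlations of log2 signals across probe sets lay at 0.965 to 0.969 within the controls, at 0.967 to 0.975 within the treated arrays and at 0.914 to 0.924 for arrays of different groups. The 12 probe sets for the poly-A control RNAs of the labelling kit were 5.11-fold higher on the pterostilbene arrays as a geometric mean, while the 9 for hybridization controls differed by 1.06-fold. The ratio of 3′ to 5′ signal for actin, a sign of RNA quality, was 1.35, 1.02 and 1.26 in the controls and 1.41 to 1.5 with pterostilbene, so every treated array lay above every control. The part of either in the results was not tested. Of the strain's defining genes, the 4 alpha-specific genes measured had control signals of 1580 to 12613 and the 6 a-specific genes 8.1 to 261.1. With pterostilbene these ranges were 53.9 to 5478 and 13.2 to 622.2, and all 4 alpha-specific genes were lower in the treated cultures. Of the 6 a-specific genes, 3 were called higher and 1 lower by the test described below. *LEU2*, *URA3*, *LYS2*, *TRP1*, *MET17* and *HIS3*, which auxotrophic laboratory strains often lack, had signals from 550.6 to 11819.3 over all arrays. Every signal is relative to the other transcripts on its array, and less of a transcript per cell cannot be told apart from more of the others.

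Transcripts for the entry into both routes and for homoserine kinase were lower in cells treated with pterostilbene, and no gene of the 9 was higher. A gene was called lower or higher where limma's moderated test gave a Benjamini-Hochberg adjusted p under 0.05 over all 9275 probe sets tested. By this test 6 genes were lower, *THR1*, *HIS1*, *HIS3*, *HIS7*, *HOM3* and *HOM2*, and 3 did not pass, *HIS4*, *HIS5* and *THR4*. Over all genes, 18.4% were called lower and 35.8% higher. No member was higher at an unadjusted p under 0.05 either, with limma (0 genes) or with the methods' t-test (0 genes), and each gave 6 lower. In the same 6 genes all 3 pterostilbene signals lay below all 3 control signals, which held for 24.5% of all genes, while the reverse held for 44.2% of all genes and for none of the 9.

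The members are brightly detected genes, and with the signals as deposited bright genes as a class had a lower median change than all genes. Of the 9, 8 lay among the brightest 20% of genes, the exception being *HIS5*, which was brighter than 77.4% of genes. Among the brightest 20%, 42.4% of the genes were called lower and 20.1% higher, so the 6 of 9 called lower stood further from the share over all genes than from that of bright genes. The median log2 fold change was -0.61 over the members, 0.22 over all genes and -0.27 over the brightest 20%. The median of the bright genes was -0.18 after quantile normalization, which gives all arrays the same distribution of signals, -0.72 after median centring, which sets the median log2 signal equal on all arrays, and -0.0062 after reference gene centring, which sets the mean of 8 housekeeping genes equal on all arrays, with 35.2%, 68.1% and 27% of them called lower. Of the 8 housekeeping genes, 2 were themselves called lower as deposited and 0 higher, with a median log2 fold change of -0.26. Centring on them added 0.26 to the log2 fold change of every gene. The medians and shares are descriptions and were not tested.

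**Figure D1:**
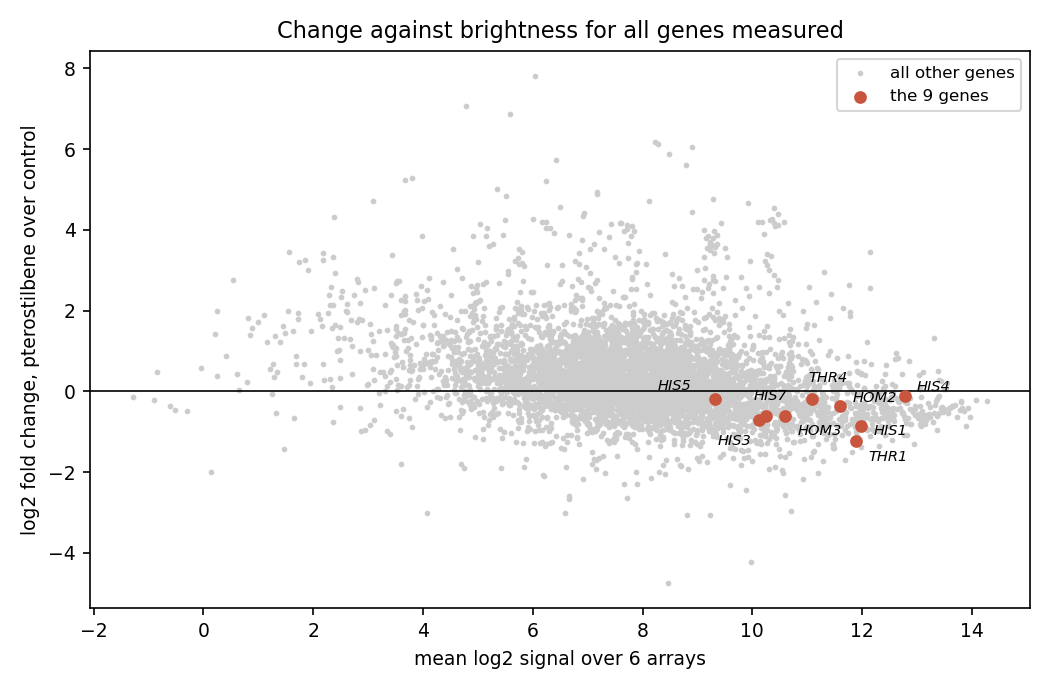
Log2 fold change of pterostilbene over control (vertical axis) against the mean log2 signal over 6 arrays (horizontal axis), with 1 grey point for each gene measured and the 9 members in red. The members sit at the bright end, all below 0, from *HIS4* at -0.11 to *THR1* at -1.22, in a region where the grey points also lie mostly below 0.

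*HOM3* encodes aspartate kinase, the committed step of the aspartate family and the step that threonine inhibits. Its signals were 1829.3, 1783.6 and 2128.1 in control replicates A, B and C and 1251, 1374.4 and 1128.2 with pterostilbene. The highest treated signal was well under the lowest control signal. The log2 fold change was -0.61 (SE 0.13 and adjusted p = 0.011), which leaves 65.4% of the control signal. After reference gene centring the adjusted p was 0.060.

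*HOM2*, aspartate semialdehyde dehydrogenase, acts next. Its signals were 3496.3, 3355.2 and 3627.3 in the controls and 2746.8, 2877.2 and 2575.3 with pterostilbene. The groups did not overlap, but this was the smallest of the 6 falls, with a log2 fold change of -0.35 (SE 0.10 and adjusted p = 0.028) and 78.2% of the control signal left. The call was lost after quantile normalization (adjusted p = 0.19) and after reference gene centring (adjusted p = 0.44). It was also lost without any 1 array other than pterostilbene replicate C, with adjusted p-values of 0.045 to 0.085 over the 6 arrays. The changes of *HOM3* and *HOM2* differed by -0.26 on the log2 scale.

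*THR1*, homoserine kinase, turns homoserine toward threonine and showed the deepest fall of the 9. Control signals were 5725.6, 5436.6 and 6262.6, and pterostilbene signals were 2338, 2529.6 and 2625.4. The treated arrays lay close together and far under every control. The mean signal went from 5808 ± 419 to 2498 ± 146 (SD, n = 3 each), and the log2 fold change was -1.22 (SE 0.11 and adjusted p = 6.4e-04), a 2.32-fold fall. It was the only member called lower at least 2-fold, which held for 3.98% of all genes, and 2.35% of genes had a deeper fall.

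*THR4*, threonine synthase, uses the product of *THR1* and did not pass the test. Its control signals were 2351.4, 2407.8 and 2239.8 and its pterostilbene signals 1909.9, 2019.4 and 2248.3. Pterostilbene replicate C stood at the level of control replicate C, so the groups overlapped. The log2 fold change was -0.18 (95% interval -0.44 to 0.08, adjusted p = 0.20), an interval that stays above that of *THR1*, at -1.48 to -0.95. After median centring *THR4* was called lower as well (-0.63, adjusted p = 0.0030). Against the mean of the controls, the log2 change of *THR1* was below that of *THR4* by 1.02, 0.99 and 1.09 in pterostilbene replicates A, B and C.

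*HIS1* encodes ATP phosphoribosyltransferase, the entry into histidine synthesis and the enzyme that histidine inhibits. The control signals were 5288.9, 5376 and 5786.2, and the pterostilbene signals 2989.2, 3000.2 and 3030. The 3 treated cultures were nearly identical, with an SD of 0.01 on the log2 scale against a median of 0.16 over all genes in that group. The mean went from 5484 ± 266 to 3006 ± 21.1 (SD, n = 3 each), and the log2 fold change was -0.87 (SE 0.09 and adjusted p = 0.0011), with 54.9% of the control signal left.

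*HIS4* encodes a single protein for several steps, including the reactions after *HIS1* and the last step, histidinol dehydrogenase. Its signals were 7763.2, 7467.8 and 6594.8 in the controls and 6140.6, 6608.8 and 7557.1 with pterostilbene. The ranges of the groups ran through each other. The log2 fold change was -0.11 (95% interval -0.42 to 0.21, adjusted p = 0.52), so a fall as deep as that of *HIS1*, whose interval was -1.09 to -0.64, lies outside the interval of *HIS4*. Its sign depended on the scaling. It was 0.21 after quantile normalization and 0.15 after reference gene centring, without passing the test in either, and -0.56 with a call (adjusted p = 0.0088) after median centring.

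*HIS7*, the amidotransferase and cyclase that closes the imidazole ring and releases the purine intermediate AICAR, was lower. The controls gave 1687.9, 1618.7 and 1248.5, and the pterostilbene arrays 873.3, 1068 and 1006.6. Control replicate C lay apart from the other controls and still above all treated arrays. The log2 fold change was -0.62 (SE 0.16 and adjusted p = 0.023), and the adjusted p was 0.11 after reference gene centring. The call was lost without control replicate A (-0.54) or B (-0.57), and also without pterostilbene replicate A (-0.54) or C (-0.64).

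*HIS3*, imidazoleglycerol-phosphate dehydratase, is the member with 2 probe sets, and they disagreed. The brighter gave 1435.3, 1378.4 and 1440.7 in the controls and 763.3, 850.3 and 1028.6 with pterostilbene. Here the controls were tight and the treated cultures spread, with no overlap, and the log2 fold change was -0.70 (SE 0.14 and adjusted p = 0.0089). The dimmer gave 377.6, 370.3 and 341.1 in the controls and 328.4, 384.8 and 417.6 with pterostilbene. Its groups overlapped, with a log2 fold change of 0.05 (SE 0.13 and adjusted p = 0.78). When both were averaged the log2 fold change was -0.32 with an adjusted p of 0.081, so the fall of *HIS3* rests on its brighter probe set.

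*HIS5*, histidinol-phosphate aminotransferase, gave control signals of 669.7, 649.9 and 736.6 and pterostilbene signals of 712.9, 811.9 and 380.1. A single array, that of pterostilbene replicate C, was low, and the other treated signals lay above most of the controls. The log2 fold change was -0.18 (95% interval -0.93 to 0.56, adjusted p = 0.65) and turned to 0.15 (adjusted p = 0.33) without that array. On that array 307 genes lay more than 0.5 log2 units below both other arrays of their group, against 53 and 62 for the other pterostilbene arrays and 65 to 257 for the control arrays. *HIS5* was the only member among these 307, which also held 3 other genes of the pathways and 3 of the Gcn4p list described below. Whether the culture or its array was the cause was not tested.

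**Figure D2:**
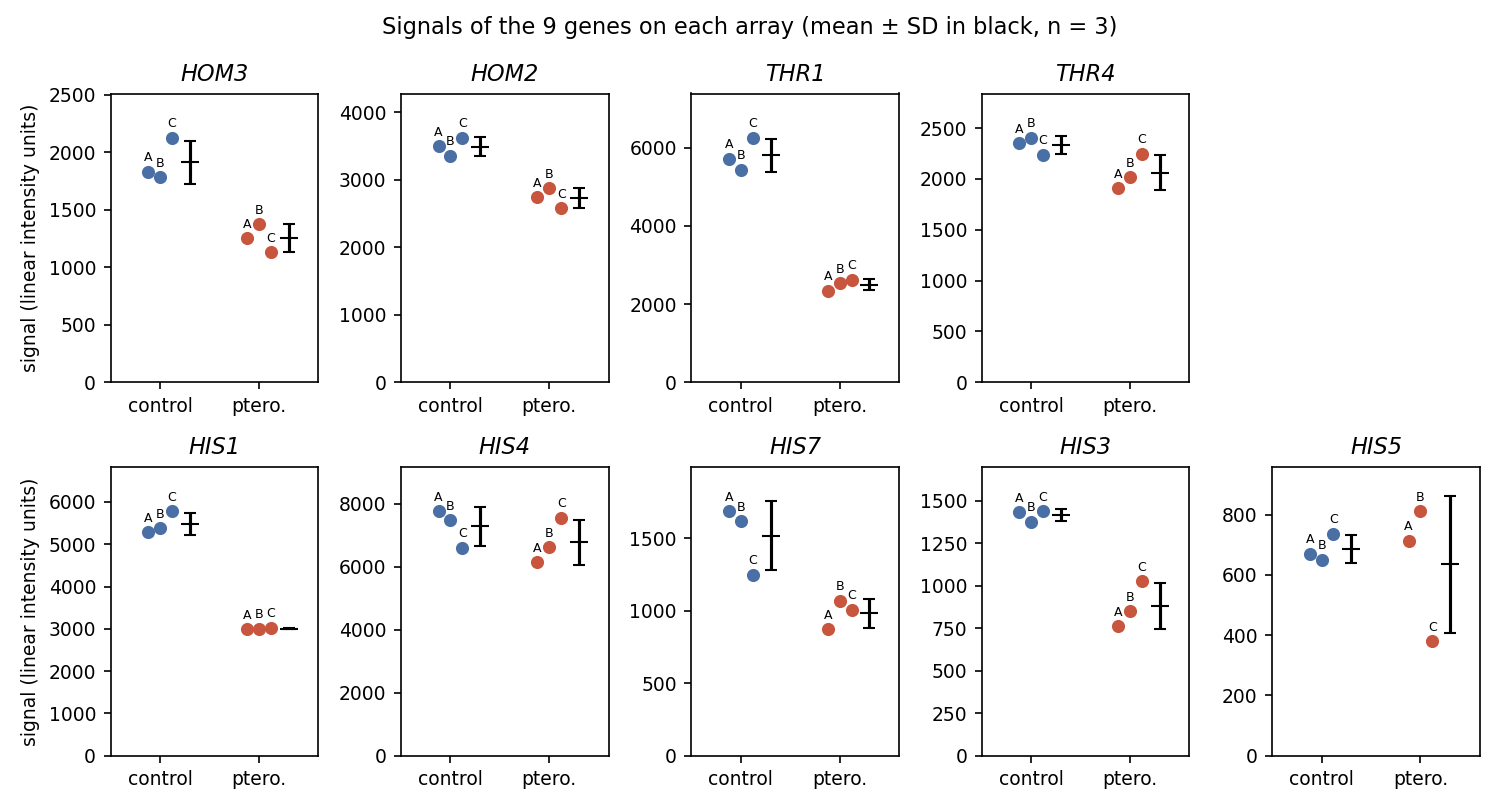
Signals of the 9 genes on a linear intensity scale that starts at 0 (vertical axes), for the control arrays in blue and the pterostilbene arrays in red, with the replicate letter above each point and mean ± SD (n = 3) in black. The treated points of *HOM3*, *HOM2*, *THR1*, *HIS1*, *HIS7* and *HIS3* lie below all control points, and those of *THR4*, *HIS4* and *HIS5* overlap with them, *HIS5* through the 1 low array at 380.1.

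The differences in log2 fold change between neighbouring members were computed for 5 pairs in pathway order. *THR1* against *THR4* differed by -1.03 and *HIS1* against *HIS4* by -0.76, and in both every treated array lay beyond every control array. *HIS7* and *HIS3* differed by 0.08, and *HIS3* and *HIS5* by -0.52 with treated arrays on both sides of the controls. The smallest p that the exact permutation test allows here (two-sided, 3 arrays against 3) is 0.1, which was its value for the pairs *THR1* and *THR4*, *HIS1* and *HIS4*, and *HOM3* and *HOM2* (0.17 after adjustment over the 5 pairs). A p under 0.05 was therefore out of reach for every pair, so this test cannot decide whether any of them differed. The test gave 0.7 for *HIS7* and *HIS3* and 0.4 for *HIS3* and *HIS5*.

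The enzymes of the same routes that are not members filled in the picture. *HOM6*, homoserine dehydrogenase, had control signals of 9185.1, 7523 and 6188.1 and pterostilbene signals of 4247.9, 4849 and 3540.8, a log2 fold change of -0.85 (SE 0.20 and adjusted p = 0.016). *HIS2*, histidinol phosphatase, went from 443.9, 460.3 and 447.2 to 277.4, 277.2 and 265.1, with a log2 fold change of -0.72 (SE 0.09 and adjusted p = 0.0017). Both were lower with no overlap. *HIS6*, an isomerase of histidine synthesis, had a log2 fold change of -0.45 and did not pass the test (adjusted p = 0.17). Its signal in pterostilbene replicate C was 91.9 against 161.3 and 156.8, and without that array the log2 fold change was -0.19. With these 3 genes, 4 of 7 genes of histidine synthesis and 4 of 5 from aspartate to threonine were called lower and none higher. The share called lower was 18.4% over all genes and 42.4% among the brightest 20%. *HOM6* missed the threshold after quantile normalization (adjusted p = 0.052) and reference gene centring (adjusted p = 0.060).

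**Figure D3:**
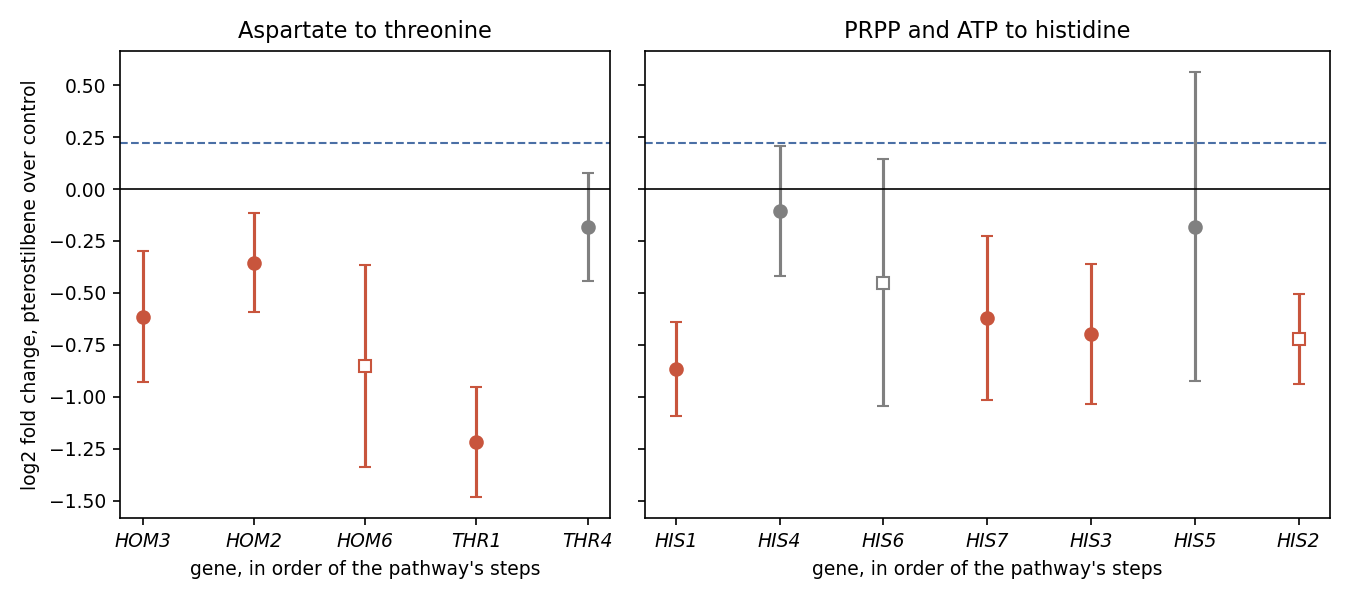
Log2 fold change of pterostilbene over control (vertical axis) for each gene in the order of its step, with bars for the 95% interval of limma, circles for the members and open squares for *HOM6*, *HIS6* and *HIS2*. Red marks genes called lower, grey those that did not pass, and the dashed line is the median over all genes, 0.22. *THR4* after *THR1* and *HIS4* after *HIS1* stand higher than the gene before them.

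The lists around the pathways were read in the same way. Their counts stand beside 18.4% of all genes called lower and 35.8% higher, and 42.4% and 20.1% of the brightest 20%. All 5 genes for PRPP synthetase subunits, *PRS1* to *PRS5*, which supply the substrate of *HIS1*, were lower, with log2 fold changes from -0.32 (*PRS5*) to -0.90 (*PRS3*). None of the 5 passed the test after reference gene centring, and *PRS2* alone kept its call whichever array was left out. *PRS1* and *PRS5* lost it without any array but pterostilbene replicate C, *PRS3* without any of the control arrays, and *PRS4* without control replicate A or pterostilbene replicate B. In the signals, pterostilbene replicate C was the lowest array for *PRS3*, at 568 against 997.5 and 1023.9. Of 3 genes of the purine steps that AICAR enters, *ADE17*, which processes AICAR, had a log2 fold change of -1.47 (SE 0.10 and adjusted p = 3e-04) and *ADE13*, adenylosuccinate lyase, -1.06 (SE 0.13 and adjusted p = 0.0021). The third, a paralog of *ADE17*, did not pass.

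On the aspartate side the genes did not move together. *AAT1*, a mitochondrial aspartate aminotransferase, was higher (0.60, adjusted p = 0.0063), although it did not pass after quantile normalization (adjusted p = 0.15) or median centring (adjusted p = 0.25). *PYC2*, a pyruvate carboxylase, was lower (-0.43, adjusted p = 0.023), but not after reference gene centring (adjusted p = 0.20) or without replicate A or B of either group. The other 2 of the 4 genes did not pass. Beyond homoserine, all 3 genes toward methionine were lower. *MET2*, homoserine acetyltransferase, which competes with *THR1* for homoserine, gave 1868.2, 1683.2 and 2008.4 in the controls and 849, 1003.5 and 906 with pterostilbene. Its log2 fold change was -1.01 (SE 0.12 and adjusted p = 0.0017), so both exits from homoserine were lower. *MET17* and *MET6*, which make homocysteine and methionine, had log2 fold changes of -0.81 and -1.34. Of 3 genes that use threonine, *ILV1*, threonine deaminase, was lower at -0.63 (SE 0.13 and adjusted p = 0.010), and the others did not pass.

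The regulators did not move in 1 direction. *GCN4* had signals of 5829.7, 5825.2 and 6078.4 in the controls and 6590.1, 6684.7 and 6125.9 with pterostilbene. All treated arrays lay above all controls by a small margin, with a log2 fold change of 0.13 (95% interval -0.10 to 0.36, adjusted p = 0.29). The call depended on the scaling. *GCN4* was higher after quantile normalization (0.40, adjusted p = 0.023) and reference gene centring (0.39, adjusted p = 0.017), and lower (-0.32, adjusted p = 0.037) after median centring. Gcn4p is controlled mainly by translation, which the arrays do not measure. *GCN20* (-0.86, adjusted p = 0.0030) and *GCN1* (-0.66, adjusted p = 0.014), both activators of the kinase that increases *GCN4* translation, were lower, *GCN1* at each of its 9 probe sets. The log2 fold changes of these 9 differed in size, from -0.66 at the brightest to -1.55. Some of them were dim, 1 with signals of 12.3 to 39.8.

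*BAS1* was higher, with signals of 127.3, 128.8 and 128.7 in the controls and 270.8, 262.4 and 225.8 with pterostilbene. The separation of the groups was wide, and the log2 fold change was 0.98 (SE 0.11 and adjusted p = 0.0013), while the *HIS* and *ADE* genes named above were lower or did not pass. *PHO2*, its partner, had low signals of 48.9, 50.5 and 55.3 in the controls and 61.9, 75.2 and 79.1 with pterostilbene, a log2 fold change of 0.48 (SE 0.13 and adjusted p = 0.029) that became -0.14 (adjusted p = 0.38) after quantile normalization. It was also lost after median centring, and without replicate B of either group, control replicate A or pterostilbene replicate C.

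Of 7 genes for amino acid uptake and tRNA charging, 2 were lower and 3 higher, beside 18.4% lower and 35.8% higher over all genes. The lower genes were the tRNA synthetases for the end products, *HTS1* for histidine (-0.36, adjusted p = 0.028) and *THS1* for threonine (-0.98, adjusted p = 0.014). Without pterostilbene replicate C the log2 fold change of *THS1* was -0.76 and kept its call (adjusted p = 0.0097). *HTS1* did not pass after quantile normalization (adjusted p = 0.085) or reference gene centring (adjusted p = 0.37), nor without control replicate B or C or pterostilbene replicate A or B. The higher genes were permeases. *BAP2*, known for branched-chain amino acids, went from 28.5, 21.7 and 28.3 to 750.9, 765.1 and 870.9, a log2 fold change of 4.93 (SE 0.15 and adjusted p = 9.6e-05). Its control signals lay within the range of the a-specific genes, which alpha cells do not use, so the size of the fold is uncertain, and it was 4.53 with a pseudocount of 8.6. *TAT1*, a permease of tyrosine, tryptophan and other amino acids, was 3.99-fold higher, and *AGP1*, a permease of broad range, 1.79-fold. The high-affinity histidine permease was in the list and did not pass.

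Other genes of amino acid synthesis under Gcn4p control gave a mixed picture. Of 43 measured outside the 2 routes, 22 were lower, 3 higher and 18 did not pass, with a median log2 fold change of -0.39, beside 18.4% lower and 35.8% higher over all genes and 42.4% lower among the brightest 20%. Reference gene centring gave 13 lower and 12 higher, and median centring 32 lower and 0 higher. *SER2* (-2.04) and *SER33* (-1.81) fell most, and the largest rises were in *SER3* (0.96) and *ILV5* (0.65), the last 2 not called after median centring. Without pterostilbene replicate C, *SER2* stood at -1.66 and *SER33* at -1.70.

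Scaling decided part of the calls among the 9 genes. With the signals as deposited 6 were lower, against 5 after quantile normalization, 8 after median centring and 3 after reference gene centring, and none was higher in any of these. Of all genes, 18.4%, 30.7%, 39% and 11% were called lower under the same 4 scalings. Of the brightest 20%, which hold 8 of the 9, the shares were 42.4%, 35.2%, 68.1% and 27%. *THR1*, *HIS1* and *HIS3* were lower under all 4 scalings. The median gene moved from 0.22 to -0.14, -0.23 and 0.48 under these scalings. Relative to the median gene, the median member stood at -0.84 as deposited and at -0.48 after quantile normalization. The other centrings shift all genes alike and leave the first value as it is.

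**Figure D4:**
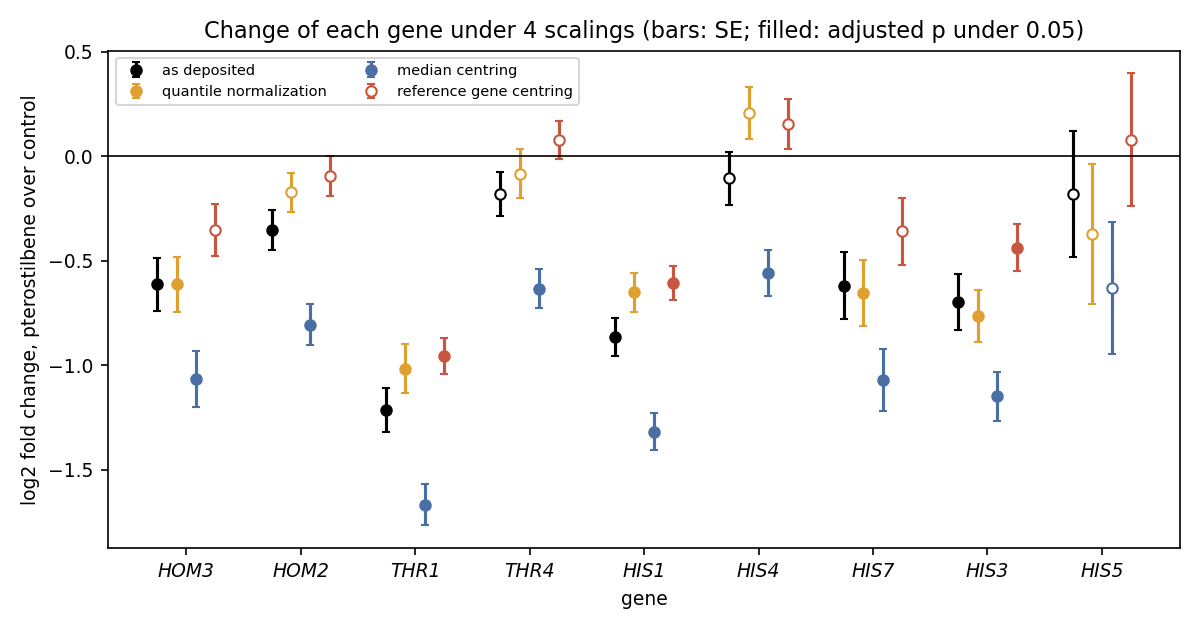
Log2 fold change of pterostilbene over control (vertical axis) for each of the 9 genes, with the signals as deposited (black) and after quantile normalization (yellow), median centring (blue) and reference gene centring (red); bars are SE and filled points have an adjusted p under 0.05. *THR1*, *HIS1* and *HIS3* are filled under all 4, and *HIS4* lies on both sides of 0.

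Within groups, the SD of their log2 signals had a median of 0.09 in the controls and 0.14 with pterostilbene, against 0.13 and 0.16 over all genes. *HIS5* (0.59) and *HIS3* (0.22) with pterostilbene and *HIS7* (0.24) in the controls were the widest. Over the 6 arrays, the genes most like the mean of the members' centred log2 signals were *TOS4*, *ANR2*, *DIE2*, *PHO13* and *WBP1*, each with a Pearson r over 0.998 as a description. *DIE2* and *WBP1* act in N-glycosylation. *WBP1* gave 3249, 3207.7 and 3152.4 in the controls and 1426.8, 1635.8 and 1403.6 with pterostilbene. Replicate B was its highest treated array, as in the mean of the members, for likeness to which it was picked. Among the members replicate B was highest in *HOM3*, *HOM2*, *HIS7* and *HIS5*, and replicate C in *HIS1*, *HIS3*, *HIS4*, *THR1* and *THR4*. The mean includes the low replicate C of *HIS5*, at -0.85 from its control mean. With 6 arrays in 2 groups likeness to the members' mean is common, and 529 genes had an r over 0.95.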

How the data were processed

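Biotin-labelled RNA of 3 control and 3 pterostilbene cultures was measured on Affymetrix Yeast S98 arrays. The intensity values are linear and as deposited, and the submitters' processing notes name GCOS 1.1 as the software. The summarisation algorithm and background correction are not given in the sources used here. Software scaling made the 2% trimmed mean 500.4 to 500.5 on every array, so only relative changes are measured.

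For the fit log2 was taken, the 23 signals of 0 being raised to the smallest positive signal, 0.1. Without the 60 control probe sets, groups were compared over the other 9275 with limma 3.58.1 in R 4.3.3 (lmFit, eBayes, no block), with Benjamini-Hochberg adjustment. The platform annotation gave 1 gene for 6504 probe sets, several for 328 and none for 2443, and RefSeq's table of assembly R64 held all 5656 genes. Alternatives were the scalings, a pseudocount of 8.6, trend and robust moderation, the methods' t-test, probe sets averaged, the dimmest 25% left out, the replicate letter as a block and each array left out. The fit was tested on simulated data. The number of arrays limits the precision.

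The members and lists were chosen with earlier results of these data known. Named are the members, every gene of the short lists that passed, the 2 largest rises and 2 deepest falls of the Gcn4p list, and the 5 most similar genes. *GCN4*, *HIS6* and the neighbours of the members were named after their values were seen. Some genes of the lists were not analysed here, and 1 item is not reported here. Sequences of the members were not used here.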

Additional observations from a re-analysis of the deposited data

How the results depend on the processing

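Of the 9 genes, *THR1* and *HIS1* were called lower under all 15 alternatives, with log2 fold changes of -1.67 to -0.96 and -1.32 to -0.61. The count called lower was 3 after reference gene centring, 4 to 5 with an array left out and 5 to 8 under the others but the block, and none was called higher in any. The median over the 9 was -1.07 after median centring, -0.35 after reference gene centring, -0.35 with probe sets averaged and -0.68 to -0.53 with an array left out. Signs that turned, none with a call for a member, were those of *HIS4* (0.21 after quantile normalization, 0.15 after reference gene centring), *HIS5* (0.078 after reference gene centring, and -0.39 to 0.15 with an array left out) and *THR4* (0.077 after reference gene centring). *GCN4* turned to -0.32 after median centring and *PHO2* to -0.14 after quantile normalization. The centrings add the same amount to every gene on an array, and the cause of the other changes was not tested.

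Over the whole array, 2025 genes were higher and 1041 lower as deposited. Quantile normalization gave 1216 and 1734, median centring 1092 and 2206, and reference gene centring 2869 and 623. The share of higher among the called genes was 66.0% as deposited and 41.2%, 33.1% and 82.2% under these scalings. With an array left out, 1616 to 1869 genes were higher and 743 to 1089 lower. Of the 34 genes in the short lists, 18 were lower and 6 higher, which became 10 and 10 after reference gene centring, 26 and 4 after median centring, and 13 to 18 and 5 to 7 with an array left out. In the Gcn4p list the counts were 14 lower and 6 higher after quantile normalization, 32 lower and 0 higher after median centring, 13 lower and 12 higher after reference gene centring, 7 higher with trend and robust moderation, and 14 to 21 lower and 2 to 3 higher with an array left out, the lowest being without control replicate A.

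No sign was seen that the replicate letters pair the cultures, and what the letters stand for is not given in the sources used here. Deviations from the group means correlated at -0.04 to -0.01 for equal letters, and no array correlated best with its own letter. With the replicate block, 3 of the 9 genes, 11 of the short lists, 13 of the Gcn4p list and 702 genes in all were lower, and 1589 genes were higher. Dim probe sets, such as that of *PHO2*, lie near the part of the scale where signal over background limits a fold change, and no member lies there.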

Other observations

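The genes beside the 9 members on the chromosomes were taken from the order of genes in the RefSeq table. Of 17 neighbours measured, 1 was lower, 7 were higher and 9 did not pass, with a median log2 fold change of 0.44. Over all genes 18.4% were lower and 35.8% higher, with a median of 0.22, so the share of neighbours called higher was near that of all genes. *HIS3* lies between *MRM1* (0.61, adjusted p = 0.0098), a mitochondrial rRNA methyltransferase gene transcribed away from it, and *DED1* (0.71, adjusted p = 0.0093), an RNA helicase gene. Both were higher, although *MRM1* did not pass after quantile normalization (adjusted p = 0.061), and neither passed after median centring (adjusted p = 0.28 and 0.13). *GIP2*, beside *HIS1*, had a log2 fold change of 1.83 (SE 0.12 and adjusted p = 3.1e-04), and *PIC2*, a mitochondrial phosphate carrier gene beside *HOM3*, 0.72 (SE 0.09 and adjusted p = 0.0017).

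*THR1* has neighbours that moved in opposite directions. *MAS2*, a subunit gene of the mitochondrial processing peptidase that is transcribed away from *THR1*, had a log2 fold change of 1.12 (SE 0.13 and adjusted p = 0.0017). *VMA16*, a vacuolar ATPase subunit gene on the same strand, had -1.02 (SE 0.11 and adjusted p = 0.0012) and was the 1 neighbour called lower. These neighbours were named after their values were seen.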
